A study of Canis lupus familiaris with 33 samples.

Results

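Canine invasive urothelial carcinoma (iUC) tumors were set apart by how much they expressed 4 genes of stratified squamous epithelium: KRT14, DSG3, DSC3 and PI3. The deposited values of these genes were averaged in each of the 29 tumors to give a score. The 10 tumors with the highest score were compared with the 10 with the lowest across all other genes. Thus 20 of the 33 samples entered the comparison. The remaining 9 tumors, in the middle of the score, and the 4 normals were described only. Because the groups were selected on these measured values, the scoring genes themselves were not tested, and the p of any other gene measures its association with the score.

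Squamous epithelium is built in layers. Cells of the basal layer attach to the basement membrane and carry keratin 14, and the cells above them are held together by desmosomes, in which desmogleins and desmocollins are the adhesive cadherins. On the way to the surface the cells change their keratins, secrete protease inhibitors and build a cornified envelope. The urothelium that lines the bladder is instead a transitional epithelium with its own surface proteins, the uroplakins, and squamous or basal gene expression is a known feature of some human bladder cancers.

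The samples were RNA from dogs. The tumors were cystoscopic biopsies of naturally occurring high-grade iUC, 1 per dog, from dogs of any breed, age or sex that had received no treatment, and the study's methods describe them as made up almost wholly of epithelial cells and without squamous differentiation under the microscope. The normals were the urothelial layer dissected from dogs put down for reasons unrelated to the bladder, and their ages are not given in the sources used here. No animal carried an engineered allele. The labels give no cell sorting, so each sample is a mixture, and in such bulk RNA more cells of a type and more RNA per cell cannot be told apart. Each value is a TMM-normalized value on the log2 scale, centred on the median of its gene in the 33 samples, so it shows how a gene differs between samples and not how abundant it is, and a difference of 1 is a 2-fold change. In genes where several samples share the lowest value, that value is taken as no detected read.

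Read depth cannot be read from such values, so 3 other measures of each tumor were compared. High tumors had 3699 to 8140 genes at the lowest value and low tumors had 6210 to 8175 (means 6397 and 7080, two-sided permutation test, p = 0.193, adjusted over 3 measures 0.571). Olfactory receptor genes should hardly be expressed in the bladder, and the share of them that was detected averaged 30.6% and 20.2% (permutation p = 0.381), and the worth of 1 read averaged 2.05 and 2.04 normalized units (permutation p = 0.890). Tumors 5 and Po, both in the high group, stood apart with olfactory shares of 91.9% and 87.4%, as did tumor 9 in the middle with 75.4%. The normals stood further apart, with 755 to 1019 genes at the lowest value and olfactory shares of 99.4% to 99.8%. Their values are therefore given beside the tumors and not compared.

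The score ran from 5.54 in tumor Da6 to -3.21 in tumor 15. The lowest member of the high group was tumor Ab at 0.82, just above tumor Sp at 0.69, which was left out. At the other end tumor CH entered the low group at -0.62, next to tumor 12 at -0.42. KRT14, the keratin of basal cells, was lowest at -0.47, had a median of 2.12 and reached 9.54 in the high tumors, against -2.83, -0.84 and 0.83 in the low tumors. DSG3, a desmoglein of the lower layers, showed -1.42, 2.90 and 6.35 against -3.17, -2.33 and 0.27. DSC3, its desmocollin partner, showed -0.51, 0.46 and 2.54 against -4.15, -1.01 and -0.23. PI3, which encodes the elastase inhibitor elafin, showed -2.21, 2.00 and 5.00 against -3.34, -1.05 and 2.57. High tumors lay above every low tumor in 8 of 10 cases for KRT14, 7 for DSG3, 8 for DSC3 and 4 for PI3.

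The high group was therefore not uniform. Tumors Da6, 7, Po, JE and 2 had DSG3 values of 4.42 to 6.35. The other members had at most 1.38, and Ja, 5 and a tumor labelled 8_734_223 entered mainly through PI3 values of 4.14 to 5.00. Over the 29 tumors KRT14 and DSG3 moved together (Pearson r = 0.80, a description of genes that were picked together), as did DSG3 and DSC3 (r = 0.74). PI3 followed the mean of the other scoring genes little (r = 0.24). The normals had PI3 at 3.51 to 5.44 and KRT14 at -1.04 to -0.30. DSG3 and DSC3 lie on canine chromosome 7 of the RefSeq assembly with only DSG4, DSG1, DSC1 and DSC2 between them, so they share a gene cluster.

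**Figure D1:**
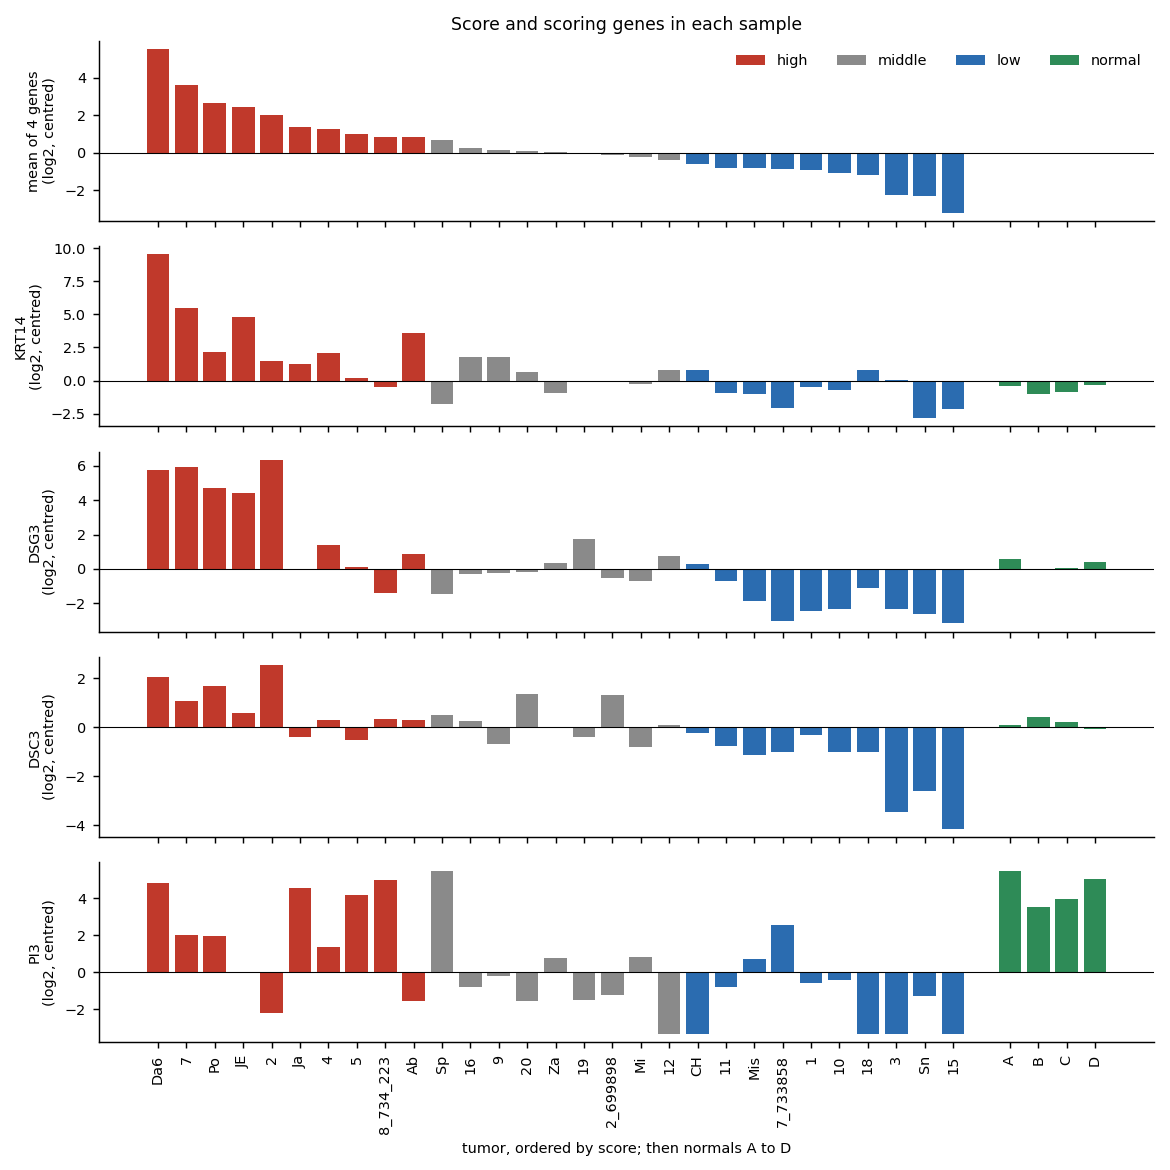
Score and scoring genes in each sample, as log2 values centred on each gene's median. Bars are single samples, tumors ordered by score from Da6 (5.54) to 15 (-3.21) and coloured as high, middle or low, with the 4 normals at the right. The 5 tumors with the highest scores carry the tall DSG3 bars of 4.42 to 6.35. Tall PI3 bars stand in tumor Da6, in other tumors and in the normals.

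Few single genes passed the test. Of 19234 genes tested with limma, 16 were higher in the high tumors, which is 0.0832% of genes tested, and 4 were lower, which is 0.0208%, with the adjusted p no higher than 0.05 and a difference of 2-fold or more. Of these, 14 and 1 had a gene symbol. Without adjustment, p was under 0.05 for 1713 genes that were higher (8.91%) and for 759 that were lower (3.95%). The median difference over all genes tested was -0.0043 on the log2 scale. The adjusted p of the genes called ran from 0.0325 to 0.0493, close to the threshold, and the calls moved with single tumors. There were none without tumor Da6, Po, JE, 4, Mis or 18, while 139 genes were higher without tumor 5, 119 without Ab and 68 without 7_733858. Without tumors 5 and Po together there was no call (1526 genes higher and 600 lower at an unadjusted p under 0.05). The 20 genes then had adjusted p of 0.0617 to 0.0717, with differences such as 3.18 for LGR6, 3.12 for GRM8 and 1.88 for IL33. Their unadjusted p stayed under 0.05, which was nearly given because most of the tumors that selected them remained. A score without PI3 shared 7 of the 10 high and 8 of the 10 low tumors and gave no call (847 genes higher and 425 lower at an unadjusted p under 0.05).

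IL33, an alarmin of the IL-1 family that epithelial and endothelial cells release on damage, separated the groups. It was lowest at -0.02, had a median of 0.66 and reached 2.60 in the high tumors, against -2.17, -0.75 and -0.52 in the low tumors, so that every high tumor lay above every low tumor (difference 1.84, SE 0.30, limma adjusted p = 0.0325). Only IL33 and GRM8 were free of overlap between the groups, and they were the only such genes among all those tested, 0.0104% of them. The middle tumors spanned both groups, with IL33 from -2.22 to 1.95 and GRM8 from -4.07 to 0.72. In the normals IL33 was 0.73 to 1.25.

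SELE, ICAM1, IL21R and KITLG were also higher. SELE, the endothelial E-selectin that slows passing leukocytes, ran from -0.94 through a median of 1.85 to 3.84 in the high tumors and from -2.79 through -0.96 to 0.04 in the low tumors (difference 2.79, SE 0.55, adjusted p = 0.0493). ICAM1, the ligand to which those leukocytes then bind firmly, ran from -0.12 through 0.76 to 1.69 and from -2.60 through -1.20 to 0.18 (difference 1.85, SE 0.34, adjusted p = 0.0464). The groups overlapped in both genes, with 8 and 6 of the high tumors above every low tumor. IL21R, the lymphocyte receptor for interleukin 21, was higher by 1.73 (SE 0.32, adjusted p = 0.0464), with medians of 1.03 and -0.79. KITLG, the ligand of the KIT receptor of mast cells and melanocytes, was higher by 1.43 (SE 0.27, adjusted p = 0.0464), with medians of 0.63 and -0.87.

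The receptor genes LGR6, GRM8 and GPR83 were higher as well. LGR6, a receptor for R-spondins known from stem cells of skin, had the largest difference among genes called, 3.21 (SE 0.60, adjusted p = 0.0464). Its high tumors ran from -2.05 through 0.99 to 2.39, and 7 of the 10 low tumors were at its lowest value of -3.14. GRM8, a metabotropic glutamate receptor, ran from -1.10 through 0.65 to 3.37 in the high tumors and from -4.07 through -1.57 to -1.12 in the low tumors (difference 2.97, SE 0.50, adjusted p = 0.0325). GPR83, a G protein-coupled receptor, was higher by 2.86 (SE 0.52, adjusted p = 0.0464), and tumor Da6 at 4.66 lay far above the next high tumor at 1.97.

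Genes called higher with a symbol also included QPCT, ALDH1L2, TRIM9, RASL10B and C16orf45. QPCT, the glutaminyl cyclase that forms pyroglutamate ends on peptides, ran from -0.68 through 1.37 to 2.99 against -2.25 through -0.76 to 0.37 (difference 2.02, SE 0.39, adjusted p = 0.0493). ALDH1L2, an enzyme of mitochondrial folate metabolism, differed by 1.67, TRIM9, a ubiquitin ligase, by 1.47, and RASL10B, a small GTPase of the Ras family, by 2.50. C16orf45 was at its lowest value in 1 high, 5 middle and 9 low tumors (difference 2.45). Genes were tested if at least 10 tumors lay above the lowest value, and C16orf45 reached that number only with the high tumors counted, so its difference is a description. The same holds for 3 of the 20 genes called (15%), ENSCAFG00000030195 among them, and for 6.88% of all genes tested. For C16orf45 and LGR6 the size of the difference depends on where the lowest value lies. TXK, a kinase of the Tec family in T cells and natural killer cells, was the only gene with a symbol that fell, by 1.65 on the log2 scale (SE 0.32, adjusted p = 0.0493), from a median of 1.06 in the low tumors to -0.41 in the high tumors. For TXK, 9 of the 10 high tumors lay below every low tumor. The 3 other genes called lower have no symbol, among them ENSCAFG00000034383, lower by 2.05 on the log2 scale.

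In the normals, which were not compared with the tumors, C16orf45 was 4.14 to 4.75, GRM8 3.26 to 4.29, QPCT 2.68 to 3.07 and TXK -1.03 to -0.11.

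**Figure D2:**
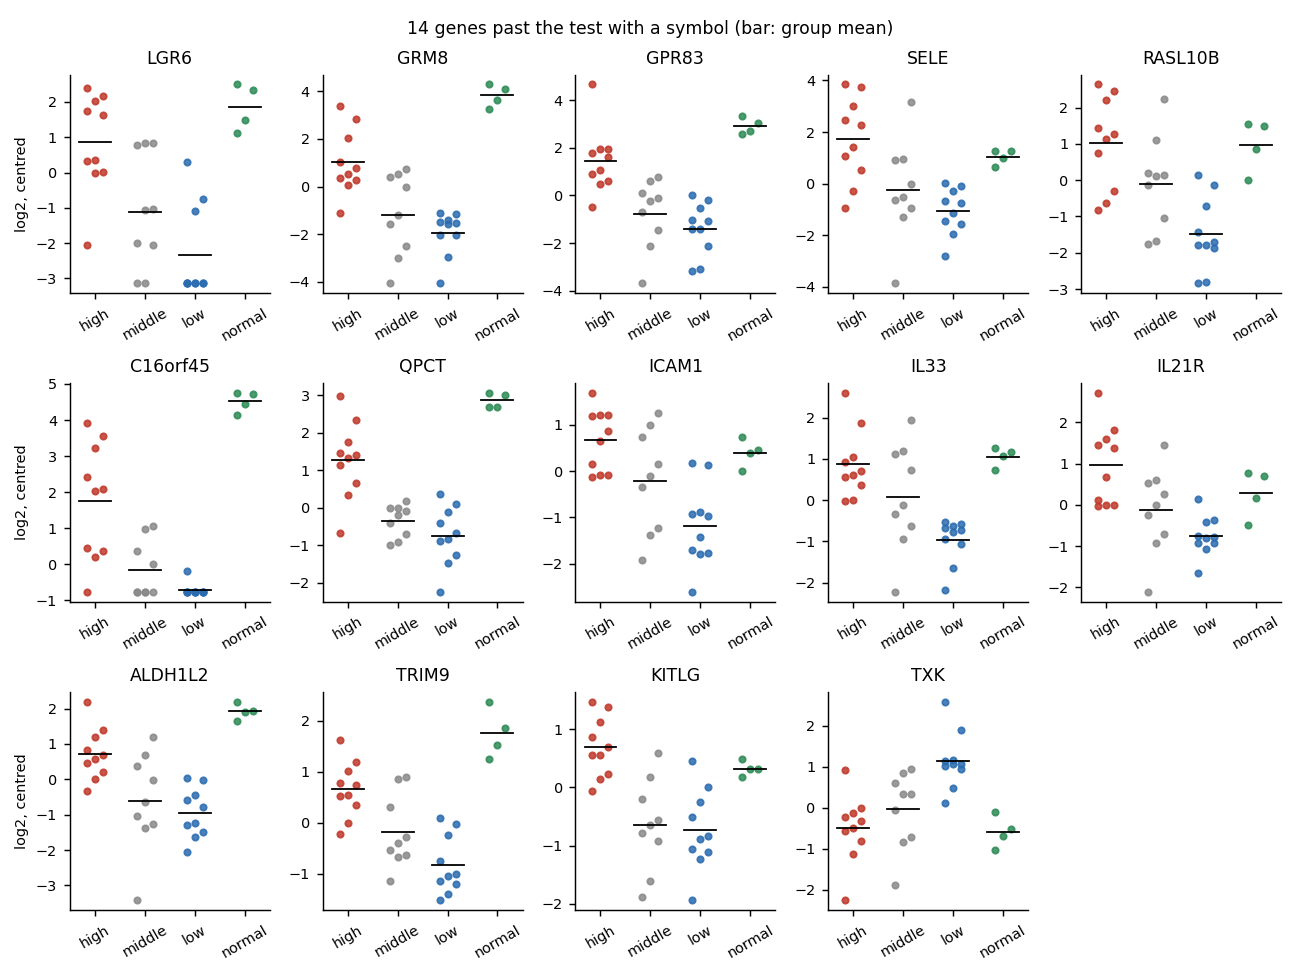
The 14 genes with a symbol described here that passed the test, as log2 values centred on each gene's median, in 10 high, 9 middle and 10 low tumors and 4 normals. Points are single samples and bars are group means. IL33 and GRM8 show no overlap between high and low tumors, and TXK is the only gene that is lower in the high tumors. C16orf45 passed the filter on low values only with the high tumors counted, so its difference is a description.

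The 9 middle tumors were not used in the comparison. In all 20 genes called, their mean lay between the means of the high and the low tumors. Genes selected for a large gap between the outer groups tend to have the middle mean between them by that selection: it lay there for 88.9% of the 1713 genes higher and 74.2% of the 759 lower at an unadjusted p under 0.05, and for 38.7% of all genes tested. Within these 9 tumors, whose scores run only from -0.42 to 0.69, the correlation with the score had the sign of the group difference for 5 of the 20 genes (25%), against 51.3% and 43.6% of those higher and lower at the unadjusted p and 48.4% of all genes tested.

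The lists of structural genes of squamous epithelium had positive medians, but no keratin, desmosome, cornified envelope or epithelial protease gene passed the adjusted test. For each list the count of genes with an unadjusted p under 0.05 is given, to be read against 8.91% higher and 3.95% lower among all genes tested. Of 23 keratins, 7 were in the analysed table and were tested, and 3 were higher at that p and none lower, with a median difference of 0.84. All 7 are type I keratins. The type II keratins of the list, among them KRT5 and KRT6A on canine chromosome 27 of the RefSeq assembly, were not analysed here, and the analysed copy of the table holds next to no genes of chromosomes 27 to 38 and X. KRT13, the keratin of suprabasal cells in mucosal squamous epithelium, ran from -1.01 through 0.68 to 8.65 in the high tumors and from -2.98 through -1.33 to 0.41 in the low tumors (difference 3.07, SE 0.91, adjusted p = 0.131). Tumor Da6 alone held the top value, and the next was 3.40. KRT15, a keratin of basal cells, ran from -1.68 through 0.73 to 4.69 against -4.93 through -2.26 to 0.85 (difference 2.92, SE 0.86, adjusted p = 0.131). KRT17 differed by 3.09 with a wider spread (SE 0.99, adjusted p = 0.162).

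Of 18 desmosome and junction genes 15 were tested, 5 were higher at the unadjusted p and none lower, and the median difference was 0.62. The connexin GJB2 had the smallest p of this list and differed by 2.09 (SE 0.56, adjusted p = 0.0952). Among the desmosomal cadherins DSG1 differed by 1.81 and DSC2 by 1.66 (adjusted p = 0.296 and 0.349). Of 40 cornified envelope genes 19 were tested, and the median was 0.21, or 0.067 without tumors 5 and Po. CLCA2 and RHCG were higher at the unadjusted p and PPL, which encodes the envelope protein periplakin, was lower (difference -0.47, SE 0.17, adjusted p = 0.221). Without tumors 5 and Po 1 gene was higher and 2 were lower at that p. Of 33 epithelial proteases and inhibitors 22 were tested, 6 were higher and none lower, with a median of 0.65. SERPINB5, the serpin maspin, came closest to passing: it ran from -0.67 through 0.84 to 2.68 against -2.45 through -0.92 to 0.00 (difference 2.04, SE 0.43, adjusted p = 0.0564). SPINK5, the inhibitor of skin kallikreins, ran from -2.82 through 0.66 to 7.56 against -2.82 through -1.93 to 0.28 (difference 2.80, SE 0.91, adjusted p = 0.166).

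Genes of the basal layer had positive differences, none of which passed the adjusted test. Of 23 genes 17 were tested, all 17 differences were positive, 10 had an unadjusted p under 0.05, and the median was 1.03. BNC1, a zinc finger factor of basal keratinocytes, ran from -1.31 through 1.77 to 6.33 in the high tumors and from -2.28 through -1.77 to 0.37 in the low tumors, of which 5 were at the lowest value (difference 3.60, SE 0.81, adjusted p = 0.0627). CD44, the hyaluronan receptor used as a basal marker in bladder cancer, ran from -0.49 through 1.46 to 3.68 against -1.97 through -0.76 to 1.24 (difference 2.27, SE 0.49, adjusted p = 0.0627). LAMA3 and LAMB3, chains of the laminin beneath basal cells, differed by 1.06 and 0.90. The mean over the list ran from -0.15 to 2.07 in the high tumors and from -1.31 to 0.07 in the low tumors, with 8 high tumors above every low tumor.

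Of 31 transcription factors of stratified epithelium 21 were tested, 9 differences were positive, and none was higher and 1 lower at the unadjusted p, with a median of -0.03. GRHL3, a factor of epidermal barrier formation, differed by -0.55 (SE 0.25, adjusted p = 0.349) and OVOL2 by -0.48 (SE 0.25, adjusted p = 0.446). TP63 was not analysed here. Of 25 tested genes of a p63 pathway list that the study took from human tumors, 9 were higher and none lower at the unadjusted p, with a median of 0.30. IL1B and GFI1 led it (differences 1.41 and 1.84). Of 8 tested genes of its human basal list, 2 were higher, CD44 and the cadherin CDH3 (difference 1.24, SE 0.56, adjusted p = 0.345), and the median was 0.26.

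**Figure D3:**
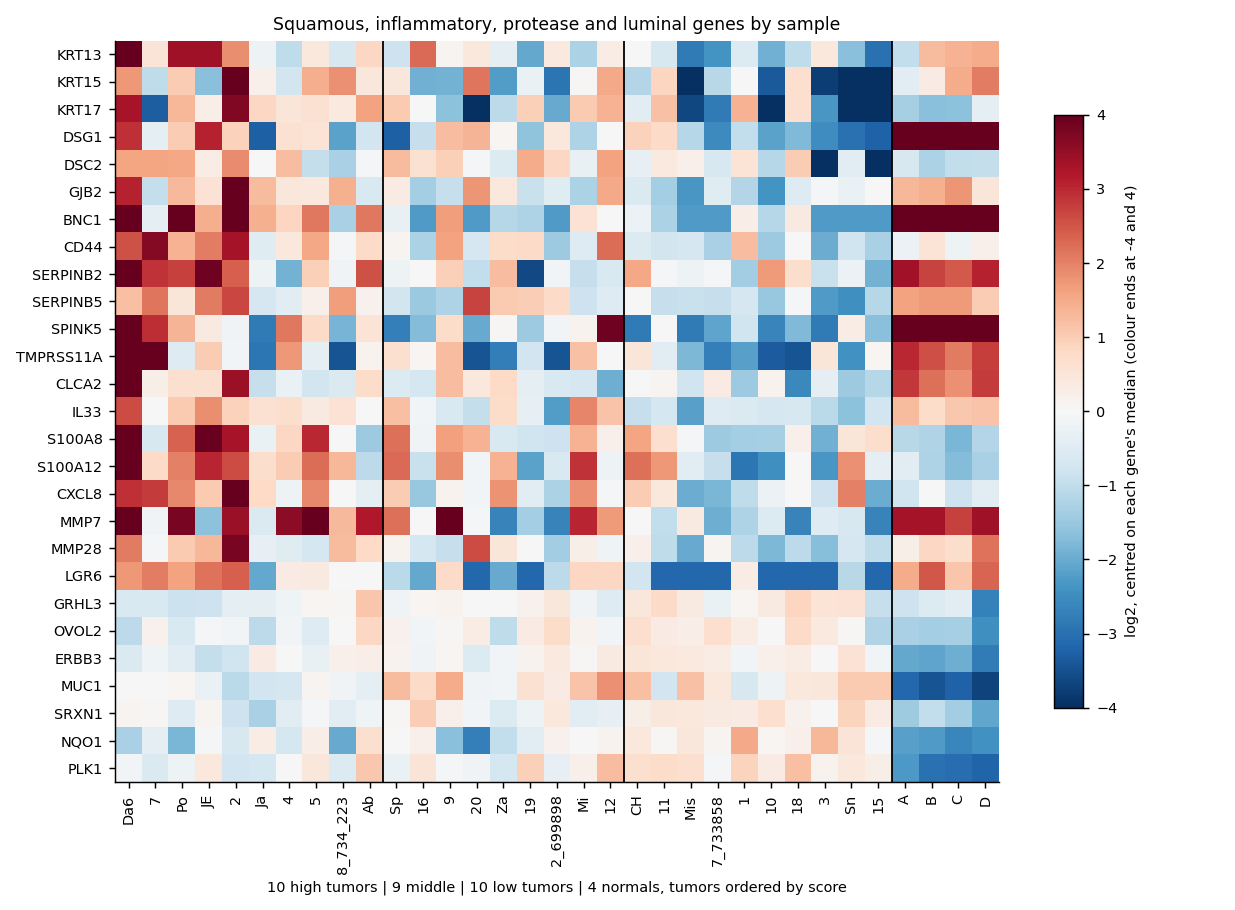
Genes of squamous structure, alarmins, matrix proteases, luminal identity, NRF2 response and cell cycle by sample, as log2 values centred on each gene's median. Columns are the tumors ordered by score, split into 10 high, 9 middle and 10 low, and then the 4 normals; colour saturates at -4 and 4. The squamous genes vary among the high tumors, with mean keratin values from -0.58 in tumor 7 to 2.37 in tumor 2.

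Alarmins and epithelial cytokines were the only list with a gene past the adjusted test. Of 31 genes 19 were tested, 1 (IL33) was called higher, 11 were higher and none lower at the unadjusted p, and the median was 0.95. After IL33 came IL1RN, the natural antagonist of the IL-1 receptor (difference 0.95, SE 0.23, adjusted p = 0.0770), IL1B (1.41, SE 0.35, adjusted p = 0.0796) and CCL20, which attracts dendritic cells and lymphocytes (3.72, SE 0.94, adjusted p = 0.0809). The neutrophil attractant CXCL8 ran from -0.39 through 1.48 to 4.38 against -2.0 through -0.53 to 2.01. The calcium-binding alarmins S100A8 and S100A12 had medians of 1.58 and 1.68 in the high tumors and 0.09 and -0.39 in the low tumors, with overlap between the groups.

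Among EGFR ligands and receptor genes, 3 of 8 tested were higher at the unadjusted p, with a median of 0.52. NRG1, a ligand of the ERBB3 and ERBB4 receptors, differed by 1.45 (SE 0.43, adjusted p = 0.134) and AREG, amphiregulin, by 2.37 (SE 0.98, adjusted p = 0.299). EGFR itself differed by -0.0048 (SE 0.22). In retinoid handling 3 of 10 tested genes were higher: RARRES2 (1.51, SE 0.34, adjusted p = 0.0627), the retinoic acid binding protein CRABP2 (1.44, SE 0.39, adjusted p = 0.0952) and LRAT, which esterifies retinol (2.26, SE 0.71). The Notch pathway had 2 of 10, NOTCH4 and the ligand DLL1 (differences 1.33 and 0.65, adjusted p = 0.216 and 0.318). Hypoxia and glycolysis genes were all slightly positive, 15 of 15, but only P4HA2 had an unadjusted p under 0.05 (difference 0.52, adjusted p = 0.228), and VEGFA differed by 0.97 (adjusted p = 0.390). Interferon response genes had a median of 0.21 and 1 of 21 higher, GBP5 (difference 2.03, SE 0.59, adjusted p = 0.127), while IFI6 differed by 1.09 with a wide spread (SE 0.76).

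Luminal genes, those of the differentiated urothelium, had a median difference of -0.31, and none passed the adjusted test. Of 50 genes 37 were tested, 26 differences were negative, and 5 were lower and 2 higher at the unadjusted p (3 and 2 without tumors 5 and Po). The list mean was -1.13 to 0.54 in the high tumors and -0.48 to 0.35 in the low tumors, with a median of 0.052 in both, and the lowest value was that of tumor Da6. GATA3, a factor of luminal identity, differed by -0.78 (SE 0.28, adjusted p = 0.221), the receptor ERBB3 by -0.50 (SE 0.18, adjusted p = 0.209), and the uroplakins UPK2 and UPK3A by -0.79 and -0.57. CYP2J2, an arachidonic acid epoxygenase on the same list, pointed the other way (1.57, SE 0.39, adjusted p = 0.0770). Glandular and secretory genes had a median of 0.04, with 2 higher and 2 lower of 18 tested: the cell adhesion molecule CEACAM1 (0.94, adjusted p = 0.195) and PROM1 were higher, and the mucin MUC1 (-0.73, adjusted p = 0.213) and PIGR, which carries IgA through epithelium, were lower.

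NRF2 targets had a median of -0.61, the lowest of the 28 lists between these groups. With the score as a continuous value over 29 tumors their median was -0.20, above those of luminal genes (-0.39) and cell cycle genes (-0.29). Of 14 tested 13 differences were negative, 4 were lower and none higher at the unadjusted p: SRXN1, NQO1, GCLC and GCLM, all enzymes of the defence against oxidants. SRXN1, sulfiredoxin, ran from -1.30 through -0.30 to 0.12 in the high tumors and from 0.00 through 0.35 to 0.89 in the low tumors, with 7 high tumors below every low tumor (difference -0.73, SE 0.18, adjusted p = 0.0770). NQO1 ran from -2.01 through -0.50 to 0.63 against -0.05 through 0.31 to 1.53 (difference -1.04, SE 0.32, adjusted p = 0.148). Cell cycle genes were lower too in their median, -0.42, with no positive difference among 22 tested, but only PLK1, a mitotic kinase, had an unadjusted p under 0.05 (difference -0.62, SE 0.22, adjusted p = 0.221). TYMS, which makes thymidylate, differed by -0.45 (adjusted p = 0.442).

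**Figure D4:**
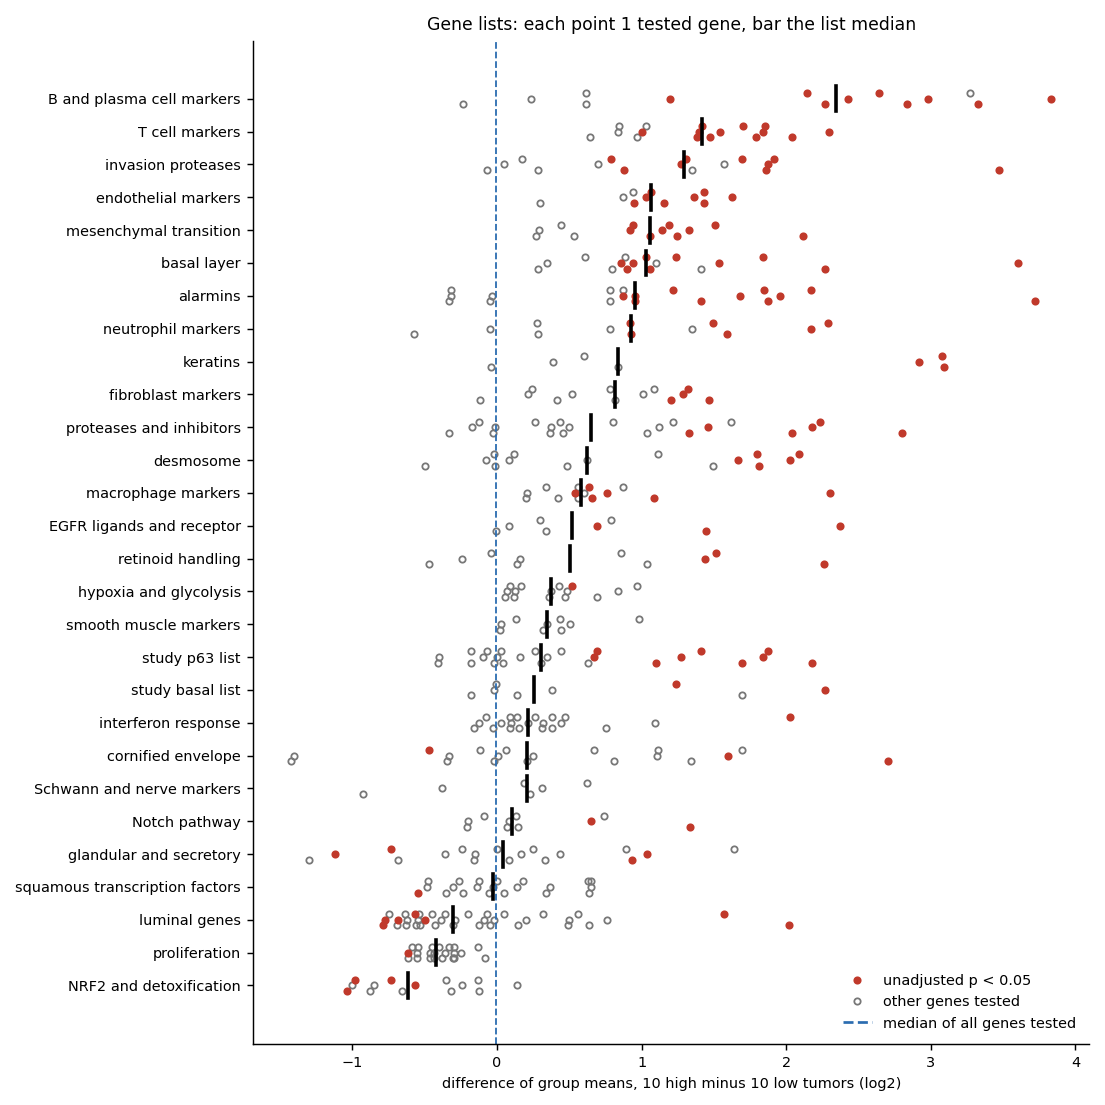
Difference between the means of 10 high and 10 low tumors for each tested gene of 28 lists, on the log2 scale. Filled points have an unadjusted p under 0.05, black bars are list medians and the dashed line is the median of all genes tested. B and plasma cell markers lie furthest to the right (median 2.35) and NRF2 genes furthest to the left (median -0.61).

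No invasion protease passed the adjusted test. Of 26 genes 16 were tested, 9 were higher and none lower at the unadjusted p, with a median of 1.29. MMP7, matrilysin, which epithelial tumor cells can make themselves, ran from -1.65 through 3.33 to 6.34 in the high tumors and from -2.67 through -0.80 to 0.35 in the low tumors (difference 3.47, SE 0.81, adjusted p = 0.0673). MMP28, a metalloprotease of keratinocytes, differed by 1.88 (SE 0.47, adjusted p = 0.0791), and PLAUR, the urokinase receptor, by 1.31 (SE 0.36). Genes of mesenchymal transition had a median of 1.06, 9 of 13 tested were higher at the unadjusted p, and none passed the adjusted test: the receptor kinase AXL differed by 1.06 (SE 0.31, adjusted p = 0.120) and SNAI1 by 1.33 (SE 0.40, adjusted p = 0.134).

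Markers of immune and vascular cells had positive medians, and no gene of these marker lists passed the adjusted test. Of 18 B and plasma cell markers 14 were tested, 9 were higher and none lower at the unadjusted p, and the median was 2.35, the highest of the 28 lists. MS4A1, the B cell antigen CD20, ran from -4.0 through 1.66 to 5.69 in the high tumors and from -4.0 through -2.41 to 0.31 in the low tumors, with 1 and 2 tumors at the lowest value (difference 3.83, SE 0.90, adjusted p = 0.0680). BLK, a kinase of the B cell receptor, ran from -2.07 through 0.89 to 3.42 against -4.13 through -1.27 to 0.03 (difference 2.84, SE 0.63, adjusted p = 0.0627). The list mean was -0.94 to 4.13 in the high and -1.55 to 0.41 in the low tumors, and tumors 7 and Ab, although high in score, were as low in it as the low tumors. Of 23 T cell markers 17 were tested, all 17 were positive, 12 were higher at the unadjusted p and the median was 1.42, with ZAP70 and IL2RB in front (differences 1.84 and 2.04, adjusted p = 0.0749 and 0.103). The mean over T cell markers was -0.99 to 2.67 in the high tumors and -2.01 to 0.41 in the low tumors.

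Endothelial markers showed the same direction, 11 of 11 positive, 8 with an unadjusted p under 0.05, and a median of 1.06. PECAM1 differed by 1.43 (SE 0.36, adjusted p = 0.0799) and EGFL7 by 0.95 (SE 0.26, adjusted p = 0.105), and the list mean was -1.20 to 2.02 against -1.61 to 0.59. Of 14 tested macrophage markers 6 were higher, with a median of 0.58: the scavenger receptor MARCO, at its lowest value in 6 low and 2 high tumors, differed by 2.31 (adjusted p = 0.0926), a size that depends on where that value lies, and LYZ by 1.08 (adjusted p = 0.213). Neutrophil markers had 6 of 12 higher and a median of 0.92, among them the decoy receptor IL1R2 (difference 2.29, adjusted p = 0.0796). Fibroblast markers had 4 of 13 higher and a median of 0.82, led by THY1 and FBLN1 (1.46 and 1.29, adjusted p = 0.0870 and 0.181). Smooth muscle markers (median 0.34) and Schwann cell and nerve markers (median 0.21) had none of 9 and none of 6 with an unadjusted p under 0.05. CALD1 and TPM2 differed by 0.98 and 0.51, and FOXD3 and GFRA3 by -0.93 and -0.38 (adjusted p = 0.440, 0.793, 0.488 and 0.613). All 9 smooth muscle differences were positive. So were 4 of the 6 for Schwann cells and nerve, FOXD3 and GFRA3 being the only negative ones.

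The list means in the high and low tumors were -0.12 to 1.37 and -0.85 to 1.05 for macrophages, -0.75 to 1.53 and -1.50 to 0.64 for neutrophils, and -1.39 to 2.15 and -1.88 to 0.89 for fibroblasts. They were -1.20 to 2.73 and -1.33 to 3.30 for smooth muscle, and -1.21 to 1.20 and -0.86 to 1.58 for Schwann cells and nerve. With the fibroblast mean as a covariate no gene was called (1180 higher and 870 lower at an unadjusted p under 0.05), and the list medians were 1.03 for the basal layer, 1.06 for alarmins, 0.80 for keratins, 1.95 for B and plasma cells, 1.27 for T cells and 0.44 for mesenchymal transition. Those of smooth muscle (-0.36) and of Schwann cells and nerve (-0.11) became negative, and the medians were 0.41 for interferon response, 0.33 for EGFR ligands and receptor genes, 0.024 for the Notch pathway and 0.084 for glandular genes. The part of the other cell types in the results was not tested. Without tumors 5 and Po the medians were 1.16 for the basal layer, 0.98 for alarmins, 0.44 for keratins, 2.14 for B and plasma cells and -0.59 for NRF2 targets, and interferon response genes had a median of -0.0035 in place of 0.21. Those of Schwann cell and nerve markers and of glandular genes were then 0.043 and -0.026.

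**Figure D5:**
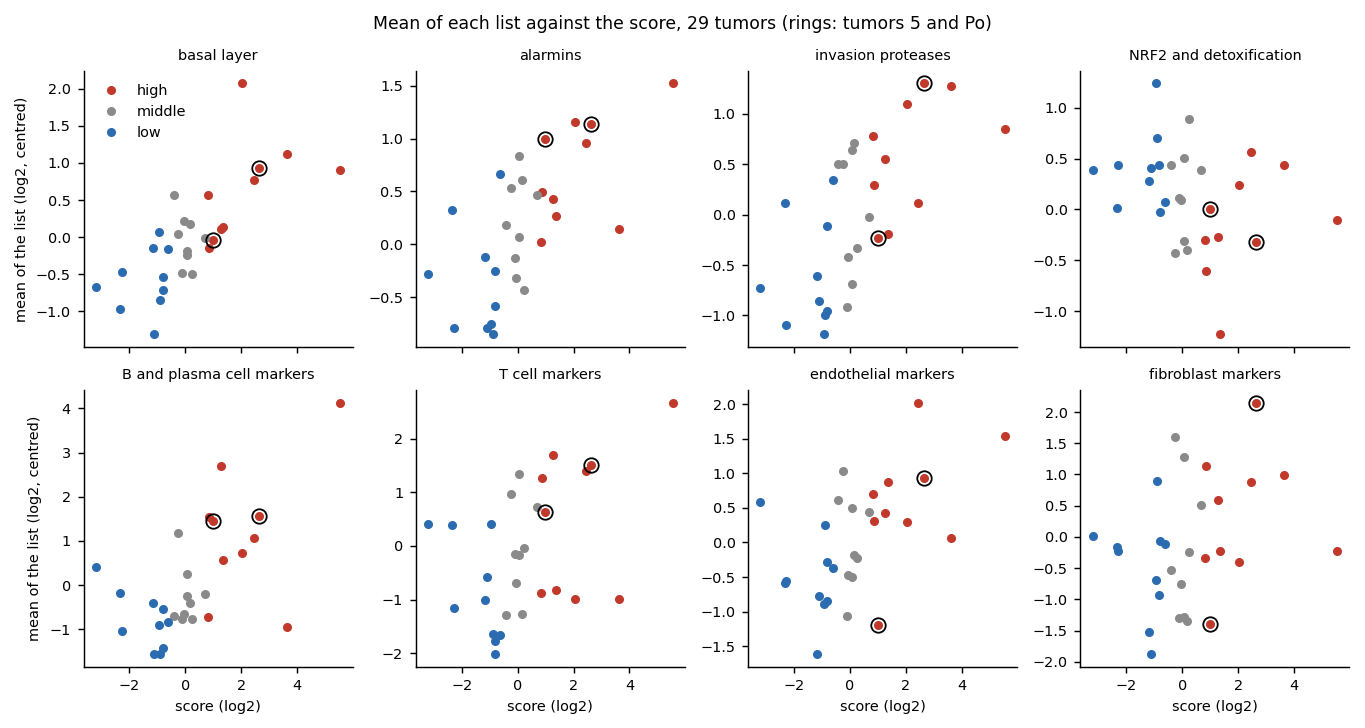
Mean over the tested genes of each list (log2, centred) against the score (log2) in 29 tumors, for 8 lists. Points are single tumors coloured as high, middle or low, and rings mark tumors 5 and Po. The basal layer mean is -0.15 to 2.07 in the high tumors and at most 0.07 in the low tumors, while tumors 7 and Ab are low in B and plasma cell markers despite their scores.

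Used as a continuous value over all 29 tumors, the score gave more calls, most of which were lost without tumor Da6. In that fit 250 genes were higher (1.3%) and 11 lower (0.0572%) with the score, at the same thresholds and with differences given over the distance between the group means, 3.58 units of score. KRT13 had the smallest adjusted p (difference 3.51, SE 0.52, adjusted p = 0.00299). Of the 20 genes called between the groups, 10 were among the calls, LGR6, GRM8, GPR83, C16orf45, QPCT, IL33, IL21R and KITLG with a symbol. The continuous fit contains the 20 tumors that selected these genes, so the overlap is no independent support. SELE (difference 1.86, adjusted p = 0.103), ICAM1 (1.22, adjusted p = 0.0790), RASL10B (1.59), ALDH1L2 (1.25), TRIM9 (0.97) and TXK (-1.10) did not pass there. With PI3 left out of that score only 4 of the 20 genes were called: LGR6, GRM8, C16orf45 and QPCT. IL33 (adjusted p = 0.0697), IL21R (0.104), GPR83 (0.135) and KITLG (0.242) then did not pass, and SELE differed by 1.35 (adjusted p = 0.420). The calls included BNC1 (3.42, adjusted p = 0.00567), CD44 (2.14, adjusted p = 0.00687), the plasminogen activator inhibitor SERPINB2 (3.05, adjusted p = 0.00726), CLCA2 (2.05, adjusted p = 0.0146), SERPINB5 and SPINK5 (1.76 and 2.97, adjusted p = 0.0205 for both), the immune costimulatory receptor TNFRSF4 (2.48), and, among genes that fell, PROX1, a factor of lymphatic endothelium, by 2.06 on the log2 scale. These genes outside the naming rule were chosen after their values were seen. By list, the calls were 5 alarmins, 4 proteases and inhibitors, 3 genes of the basal layer, 3 invasion proteases, 3 genes of mesenchymal transition, 3 neutrophil markers, 3 genes of the p63 pathway list, 2 desmosome genes, 2 endothelial markers, and 1 each of the keratins, cornified envelope genes, retinoid genes, interferon genes, fibroblast markers, macrophage markers and the human basal list. In the Schwann cell and nerve list 1 gene was lower. Some genes are in more than 1 list. There was no call among the luminal genes, NRF2 targets, squamous transcription factors, T cell markers, or B and plasma cell markers. Of the 261 calls, 23 passed the filter on low values only with the high tumors counted, C16orf45 among them. With PI3 left out of the continuous score, 58 genes were higher (0.302%) and 2 lower (0.0104%), and the calls by list were 4 proteases and inhibitors, 4 genes of the basal layer, 2 invasion proteases, 2 genes of the human basal list, and 1 each of the keratins, desmosome genes, cornified envelope genes, neutrophil markers and the p63 pathway list. No alarmin, gene of mesenchymal transition or endothelial marker was then called.

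Without tumor Da6, which has the highest score, 5.54, 2 genes were higher and none lower (1535 and 583 at an unadjusted p under 0.05): QPCT (adjusted p = 0.0282) and PLCD1. KRT13 then differed by 2.47 (adjusted p = 0.0761), BNC1 by 3.04 (adjusted p = 0.0895), CD44 by 2.43 (adjusted p = 0.0577), and SERPINB5 by 2.18 (adjusted p = 0.0604). SPINK5, CLCA2 and SERPINB2 differed by 1.89, 1.28 and 2.18 (adjusted p = 0.338, 0.282 and 0.157). Leaving out each of the other 28 tumors in turn, an alternative chosen after seeing the data, gave 121 to 410 genes higher and 7 to 20 lower. The counts moved by more than 1.5 times without tumors JE (121 higher), Po (126), 3 (144 and 7 lower), 18 (7 lower), 15 (410 and 20), 7 (20 lower) and Sn (18 lower).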

How the data were processed

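The authors aligned paired-end RNA-seq reads to CanFam 3.1 with COBWeb in Strand NGS 3.1, quantified annotated genes and normalized them by TMM and by DESeq. The deposited values are on the log2 scale and centred by gene, with a median of 0 in the 33 samples. Counts were not used here, which leaves depth unknown. The analysed copies end within a line: of RefSeq gene symbols, 59.5% to 86.7% per chromosome were present for chromosomes 1 to 26 and at most 1.0% for 27 to 38 and X. The TMM table holds 25096 genes, 12202 with a symbol, and of 638 list symbols 214 were not analysed here. The neighbours of DSG3 come from RefSeq, matched by symbol (11053 of 12022 symbols).

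Genes above their shared lowest value in at least 10 tumors, or with no shared lowest value, were tested, and 5862 were not, counting the 4 scoring genes. High and low tumors were compared in limma 3.58.1 under R 4.3.3, using lmFit and then eBayes with trend = TRUE. P-values were adjusted by the Benjamini-Hochberg method; a call needs both an adjusted p no higher than 0.05 and a 2-fold difference. The script was tested on simulated data. Python 3.11.15 with numpy 2.4.6, pandas 2.3.3, scipy 1.17.1 and matplotlib 3.10.9 was used for the rest, with 100000 resamples for permutation tests. The design had allowed for linear values with a pseudocount; the tables were on the log2 scale and were used as they are.

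Named genes are the scoring genes, the 12 largest rises and 12 largest falls among called genes with a symbol, and in each list the 3 called genes of smallest adjusted p or, with none called, the 2 of smallest p. A few genes that the rule names are not reported here. Other named genes were chosen after their values were seen. The groups, lists and rule were chosen with earlier results of these data known. Each tumor is 1 dog, and the limma p of a gene measures its association with the score, judged against the spread between dogs.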

Additional observations from a re-analysis of the deposited data

Results flagged for a closer look

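Of 160 sets of values examined, 12 held a highest or lowest sample whose gap to its neighbour was a large part of the range of its group; chance gives about 1 in 20. Among high tumors, Da6 stood out in GPR83 (4.66, next 1.97) and KRT13 (8.65, next 3.40). Tumor 2 was low in TYMS (-1.27, next -0.27), and tumor Ab was high in GRHL3 (1.11, next 0.07) and low in GFRA3 (-1.67, next -0.58). Among low tumors, 7_733858 was high in TPM2 (3.84, next 0.31), low in CDH3 (-3.33, next -1.22) and had the smallest worth of 1 read (1.64 normalized units, next 1.92). Tumor 15 was low in OVOL2 (-1.19, next -0.02) and high in FOXD3 (2.56, next 0.89). Tumor Sn was the only low tumor above the lowest value of C16orf45 (-0.17, against -0.76 in the rest), and tumor 1 had the largest olfactory receptor share (51.0%, next 26.1%).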

How the results depend on the processing

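The 16 genes higher and 4 lower became 12 and 0 in the table the authors normalized by DESeq, 7 and 0 without the mean-variance trend, 6 and 0 with genes above the lowest value in at least 4 tumors, and 5 and 0 with no filter. A score without KRT14 gave 238 and 7, without DSG3 64 and 1, and without PI3 0 and 0. Comparing 7 with 7 or 14 with 14 tumors gave 0 and 0, as did the olfactory receptor share and the fibroblast mean as covariates. Leaving out tumors far from the others in genes at the lowest value (18, 5, Ab and Po) gave 2 and 0. The score as a continuous value gave 250 and 11 over 29 tumors. Of the alternatives chosen after seeing the data, leaving out tumors 5 and Po gave 0 and 0, a weight per tumor 86 and 5, and the continuous score 116 and 7 over 26 tumors, 2 and 0 without Da6, 121 to 410 and 7 to 20 without each of the other 28 tumors, and 58 and 2 from KRT14, DSG3 and DSC3 only. Leaving out each of the 20 tumors gave 0 to 139 higher and 0 to 9 lower: 139 and 9 without 5, 119 and 9 without Ab, 68 without 7_733858, 50 and 9 without 7, 39 without Sn, and 5 to 10 higher without 2, 8_734_223, CH, 11, 1, 10 or 3; without Ja 1 was lower. At no fold threshold, with scaled scoring genes or without DSC3 the counts were those reported. The cause of these shifts was not tested. All 20 genes called had the same sign in every alternative. Every alternative reuses tumors from which these genes were selected, so a kept sign is largely given by that selection. No paired analysis was possible because the groups share no replicate numbers. Most calls have an adjusted p near 0.05, so a gene that did not pass is not shown to be alike in the groups.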
